A study of Mus musculus with 20 samples.

Results

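The genes described here are 43 chromatin regulators and transcriptional coregulators that act outside the BAF remodelling complex. They were chosen by name, as the rows of the authors' deposited table whose symbol equals a listed gene, and all 43 were found among its 17787 genes and passed the filter on low values. By role they comprise 8 remodelling ATPases of the CHD family, 5 other remodelling ATPases, 7 histone deacetylases, 5 nuclear receptor coregulators, 4 acetyltransferases, 9 subunits of COMPASS-type complexes, 4 H3K27 methylation writers and erasers, and the bromodomain protein Brd2. RNA was sequenced from 20 samples of mouse macrophages grown from the marrow of male C57BL/6J mice, purified on Ficoll and kept for 7 days in medium with L929 supernatant, a source of the macrophage growth factor. The cells received 50 nM of siRNA against Brg1 or of control siRNA with RNAiMAX in serum-free medium for 48 h, and Brg1, which the gene Smarca4 encodes, is the ATPase of BAF. For the last 6 h they were given 1 µM dexamethasone (Dex, a synthetic glucocorticoid) with 100 ng/ml lipopolysaccharide (LPS, a bacterial cell wall component), LPS alone, or vehicle, which is the ethanol and buffer the agents came in. The 6 groups were Brg1 siRNA with Dex+LPS (n = 4), LPS (n = 3) or vehicle (n = 3), and control siRNA with the same treatments (n = 4, 3 and 3). Every group was transfected, so none is untouched by siRNA or reagent, and each arm rests on a single siRNA product. The labels do not say whether replicates came from separate animals or cultures, so the p-values speak of the spread between these libraries alone, which may be technical. In bulk RNA, fewer cells of a type and less RNA per cell cannot be told apart.

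These proteins set how tightly DNA is packed and which histone marks it carries. Remodelling ATPases slide, evict or exchange histones. Acetyltransferases such as Crebbp and Ep300 add acetyl groups that mark active enhancers, and deacetylases, held in corepressor complexes with Ncor1, remove them. COMPASS-type complexes methylate histone H3 at active promoters and enhancers, while Ezh1 and Ezh2, the catalytic subunits of a Polycomb complex, place the repressive H3K27 methylation that Kdm6a and Kdm6b take off. In macrophages LPS sets off inflammatory transcription through Toll-like receptor signalling, and the glucocorticoid receptor, bound by Dex, damps much of it with the help of coregulators such as those of the Ncoa family.

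Of the 43 genes, 4 were called for a difference in the LPS response between the siRNAs, and the promoter windows available for 3 of them, Hdac5, Kat2a and Ezh2, are printed here so that the letters stand beside the values. Each is the 250 bases before a RefSeq transcription start in GRCm38.p6, on the minus strand, written 5′ to 3′, with capitals marking every match to a searched motif. The Hdac5 window is chr11:102230173-102230422, the Kat2a window chr11:100712468-100712717 and the Ezh2 window chr6:47595031-47595280.
Hdac5: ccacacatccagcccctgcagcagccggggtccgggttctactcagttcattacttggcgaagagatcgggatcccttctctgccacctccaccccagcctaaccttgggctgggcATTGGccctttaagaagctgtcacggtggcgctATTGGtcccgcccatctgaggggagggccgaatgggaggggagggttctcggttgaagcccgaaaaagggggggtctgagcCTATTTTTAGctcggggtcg
Kat2a: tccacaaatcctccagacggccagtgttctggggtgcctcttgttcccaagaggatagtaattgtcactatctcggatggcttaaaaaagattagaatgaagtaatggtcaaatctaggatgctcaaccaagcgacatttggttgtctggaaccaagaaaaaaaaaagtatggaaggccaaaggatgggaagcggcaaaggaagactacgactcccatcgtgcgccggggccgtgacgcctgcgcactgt
Ezh2: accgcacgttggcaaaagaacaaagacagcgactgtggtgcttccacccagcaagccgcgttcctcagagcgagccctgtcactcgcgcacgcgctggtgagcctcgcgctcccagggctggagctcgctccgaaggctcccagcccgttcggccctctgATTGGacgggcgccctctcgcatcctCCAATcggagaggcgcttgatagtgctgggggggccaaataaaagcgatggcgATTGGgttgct
The search read both strands for 8 motifs: NF-kappaB (GGGANNNNCC), AP-1 (TGANTCA), the glucocorticoid receptor (ACANNNTGT), PU.1 (GAGGAAGT), E2F (TTTGGCGC), ETS (CCGGAAGT), NF-Y (CCAAT) and MEF2 (CTANNNNTAG). The last 2 were added after the windows had been read. Hdac5, a class IIa deacetylase known to bind MEF2 factors, had 2 NF-Y matches, 134 to 130 and 101 to 97 bases before its start, and a MEF2 match 20 to 11 bases before it. In Ezh2, 3 NF-Y matches lay 90 to 86, 64 to 60 and 11 to 7 bases before the start. The Ezh2 window lies inside the annotated gene, which spans 47530139 to 47595341. The RefSeq start used for it is therefore not the outermost annotated start of Ezh2. The Hdac5 and Kat2a windows lie outside their annotated genes. The Kat2a window held none of the 8 motifs. Of all 32851 windows of the same length, 33.8% held the NF-Y motif, 3.2% the MEF2 motif, 17.6% the NF-kappaB motif, 6.75% the AP-1 motif, 5.84% the glucocorticoid receptor motif, 2.44% the PU.1 motif, 2.88% the ETS motif and 0.417% the E2F motif. The GC content was 60.8% in the Hdac5 window, 48.8% in the Kat2a window and 63.6% in the Ezh2 window, against a median of 52.4% over all windows. Windows were on hand for 31 of the 43 genes. These genes have 43 windows in all, of which 12 held the NF-kappaB motif, 8 NF-Y, 3 MEF2, 2 AP-1 and 1 PU.1. Each motif was held by as many genes as windows. None of the windows held the glucocorticoid receptor, E2F or ETS motif. A match describes letters in a window and is not a binding site.

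Depth ran from 13.69 to 18.71 M reads per library. Smarca4, the targeted gene, had normalized counts in LPS of 621, 559.5 and 600.1 with Brg1 siRNA, against 2989.8, 2899 and 2751 with control siRNA, with no overlap of the siRNA groups in any treatment (log2 change -2.12, limma adjusted p = 1.5e-11 in vehicle; log2 change -2.28, limma adjusted p = 3.76e-12 in LPS; log2 change -2.10, limma adjusted p = 1.31e-12 in Dex+LPS). The 10 macrophage markers summed to 307157 to 543533 normalized counts per library, more with Brg1 siRNA than with control siRNA in each treatment. Of the 10, limma called 4 higher and 2 lower with Brg1 siRNA in vehicle. In LPS it called 6 and 1, and in Dex+LPS 6 and 2. Over all tested genes the shares were 9.39% and 10.8% in vehicle, 17.3% and 15.8% in LPS, and 19.0% and 15.3% in Dex+LPS. Csf1r was among the markers called lower in vehicle and in Dex+LPS. Summed markers of T and NK cells and of fibroblasts stayed at or below 11.4, dendritic cell markers at or below 37.2 and neutrophil markers at 67.8 to 565. The 4 B cell markers in the table summed to 53.2 to 70.8 with Brg1 siRNA and vehicle, against 629.8 to 703 with control siRNA, with Cd79a at 0 in both. A list of nuclear and non-polyadenylated RNAs summed to 15407 to 17381 with Brg1 siRNA and vehicle, against 21078 to 23939 with control siRNA. The part of these other cell types and RNAs in the results was not tested. The authors' normalization and plain library totals placed the centre of the table differently. Under plain totals the median log2 change of all 12061 tested genes was -0.61 for LPS with control siRNA, where the authors' scaling gave -0.04, and -0.72 with Brg1 siRNA, where it gave -0.05. For Dex+LPS against LPS it was 0.31 with Brg1 siRNA and 0.28 with control siRNA, against -0.02 and -0.01 under the authors' scaling. For the knockdown in LPS, plain totals gave -0.12 and the authors' scaling 0.01. Changes below are relative to the authors' scaling.

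A pair of libraries stood apart in a way that touches these genes. In control siRNA Dex+LPS replicate 2, genes with transcripts of at least 8 kb lay below those under 2 kb by 0.724 on the log2 scale, taking medians of deviations from the mean of the other libraries of the group, and in control siRNA vehicle replicate 1 by 0.327. In the other 18 libraries the same difference ran from -0.12 to 0.298. The 43 regulators are long: their median transcript measured 7.26 kb, against 3.05 kb over all tested genes, and 16 of them reached 8 kb, a length that 5.04% of tested genes have. In control siRNA Dex+LPS replicate 2 the median deviation of the 43 genes was -0.356, and 25 of them were lowest there within their group. Counts over the 43 genes and over the partner proteins are therefore also given without both libraries, an alternative chosen after the data were seen. Not every count by role is printed, and those printed are repeated where they change.

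**Figure D1:**
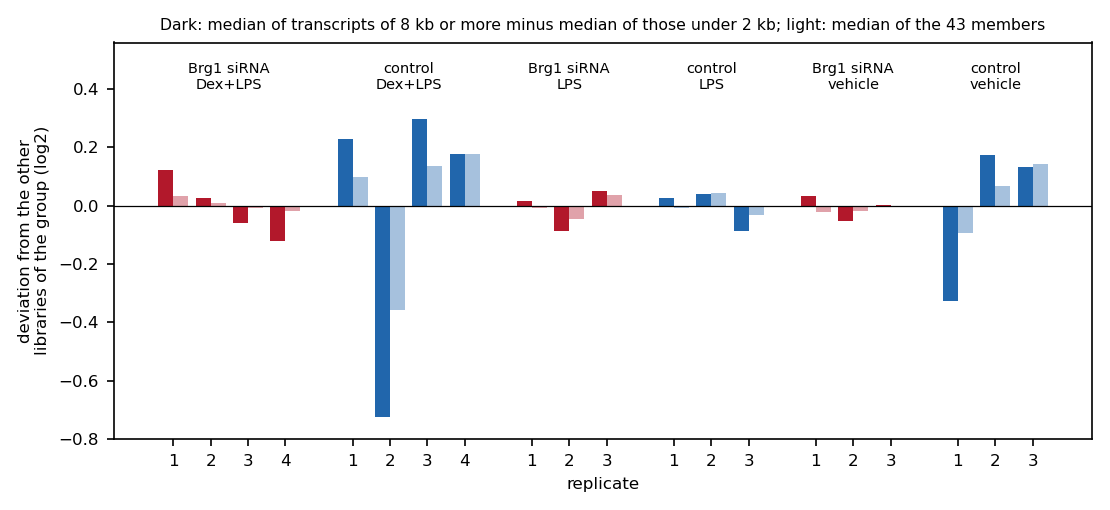
Deviation of each of the 20 libraries from the mean of the other libraries of its group (log2 scale). Dark bars give the median over genes with transcripts of at least 8 kb minus that over genes under 2 kb, and light bars the median of the 43 regulators; control siRNA Dex+LPS replicate 2, at -0.356 for the regulators, lies lowest.

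Per kilobase of the longest transcript, so that genes can be compared, Brd2 was the most abundant of the 43 in control siRNA vehicle samples, at 754 ± 7.38 normalized counts per kb (SD, n = 3). Chd4, the main ATPase of the NuRD complex, followed at 669 ± 39.2 and Hdac1 at 379.7 ± 8.53. Ncoa3 (338 ± 36.5), Hdac3 (298 ± 4.76) and Ezh1 (283 ± 2.63) came next. Ncoa3 lay above Hdac3 by little more than its own SD. Ezh1, the Polycomb methyltransferase associated with cells that no longer divide, stood above Ezh2, which was at 86.2 ± 9.0 per kb. The lowest were Chd7 (10.3 ± 1.15), Hdac9 (8.95 ± 2.01) and Kdm6b (3.23 ± 0.506). The neighbours Chd7 and Hdac9 differed by less than the spread of Hdac9.

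Silencing of Brg1 was called for 5 of the 43 genes in resting cells, 13 with LPS and 14 with Dex+LPS, and over all tested genes the share called was likewise lowest in vehicle. The counts of the 3 treatments were not tested against each other. With vehicle, Kdm6b was the 1 gene that rose, and Hdac2, Hdac3, Kat2b and Rbbp5 fell. With LPS, Ezh2 and Kdm6b rose while 11 genes fell, among them Kat2a, Hdac5, Chd6 and Kat2b. With Dex+LPS, 7 rose (Kdm6b, Kmt2a, Chd9, Ezh2, Ncoa3, Chd1 and Brd2) and 7 fell (Hdac5, Hdac2, Hdac3, Kat2a, Hdac1, Rbbp5 and Chd4). Kdm6b rose, and Hdac2 and Hdac3 fell, in all 3 treatments. Calls are at a limma adjusted p under 0.05, corrected over all 12061 tested genes. In vehicle 1 of 43 was called higher and 4 lower, where the share of all tested genes called was 9.39% higher and 10.8% lower. In LPS 2 were called higher and 11 lower, against 17.3% and 15.8% of all genes, and in Dex+LPS 7 and 7, against 19.0% and 15.3%. The median log2 fold change of the 43 genes was 0.01 in vehicle, -0.08 in LPS and 0.02 in Dex+LPS, and that of all tested genes 0.01 in each. Without the libraries low in long transcripts the counts were 1 higher and 4 lower in vehicle, 5 and 11 in LPS, and 7 and 7 in Dex+LPS, where the median became -0.06. The number called in vehicle fell to 3 when control siRNA vehicle replicate 1 or 2 or Brg1 siRNA vehicle replicate 2 was left out, and that in LPS fell to 8 without Brg1 siRNA LPS replicate 3. Under plain library totals the split in Dex+LPS was 5 higher to 9 lower.

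LPS moved most of the 43 genes, as it did the table as a whole. With Brg1 siRNA 18 rose and 11 fell, and with control siRNA 18 rose and 10 fell, against 35.4% and 37.4% of all genes with Brg1 siRNA and 36.0% and 37.0% with control siRNA. Called in the same direction with both siRNAs were 26 genes, 17 higher and 9 lower. Kdm6b showed the largest rise among the 43 and Hdac5 the largest fall, with either siRNA. Median log2 fold changes of the 43 were 0.01 with Brg1 siRNA and 0.30 with control siRNA. Without the libraries low in long transcripts the split was 19 to 12 with Brg1 siRNA and 17 to 13 with control siRNA.

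The scaling decides many of the smaller LPS rises. Under plain library totals 6 of the 43 were called higher and 24 lower with Brg1 siRNA, and 8 higher and 20 lower with control siRNA. The rises of Kdm6b, Ep400, Ino80, Wdr5, Hdac1 and Brd2 were called under both scalings with both siRNAs, and those of Setd1b and Hdac2 with control siRNA. With Brg1 siRNA, calls of Chd1, Smarca5, Srcap, Hdac2, Crebbp, Setd1b, Kmt2a and Kmt2d ended under plain totals, and Chd4, Nrip1, Kat2b and Setd1a turned to negative values, of which that of Chd4 was called lower. With control siRNA, calls of Srcap, Kat2b, Kmt2a and Kmt2d ended, and Chd1, Chd4, Smarca5, Nrip1, Setd1a and Kmt2c turned to negative values, again with Chd4 called lower.

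Adding Dex to LPS lowered more of the 43 genes than it raised. With Brg1 siRNA 6 rose and 14 fell, and with control siRNA 4 rose and 14 fell, against 21.3% and 23.0% of all genes with Brg1 siRNA and 23.4% and 25.2% with control siRNA. The genes called with both siRNAs numbered 12, of which Ash2l rose and 11 fell (Kdm6b, Ncoa3, Ep400, Setd1b, Hdac1, Chd7, Nrip1, Brd2, Ino80, Kat2b and Wdr5). Median log2 fold changes were -0.10 with Brg1 siRNA and -0.21 with control siRNA, and without the libraries low in long transcripts that with control siRNA was -0.06. The splits without them were 8 to 17 with Brg1 siRNA and 7 to 14 with control siRNA. The direction of the balance turns with the scaling: under plain library totals 19 were called higher and 3 lower with Brg1 siRNA, and 13 higher and 9 lower with control siRNA. With Brg1 siRNA the falls of Chd3, Chd7, Ino80, Ep400, Nrip1, Kat2b, Setd1b, Kmt2d and Brd2 ended under plain totals, that of Wdr5 turned to a positive value and that of Chd4 to a called rise. With control siRNA the falls of Chd6, Hdac1, Nrip1, Kmt2a and Kmt2c ended. The LPS and the Dex comparison of each siRNA share their LPS libraries, so a high LPS value raises the one and lowers the other.

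**Figure D2:**
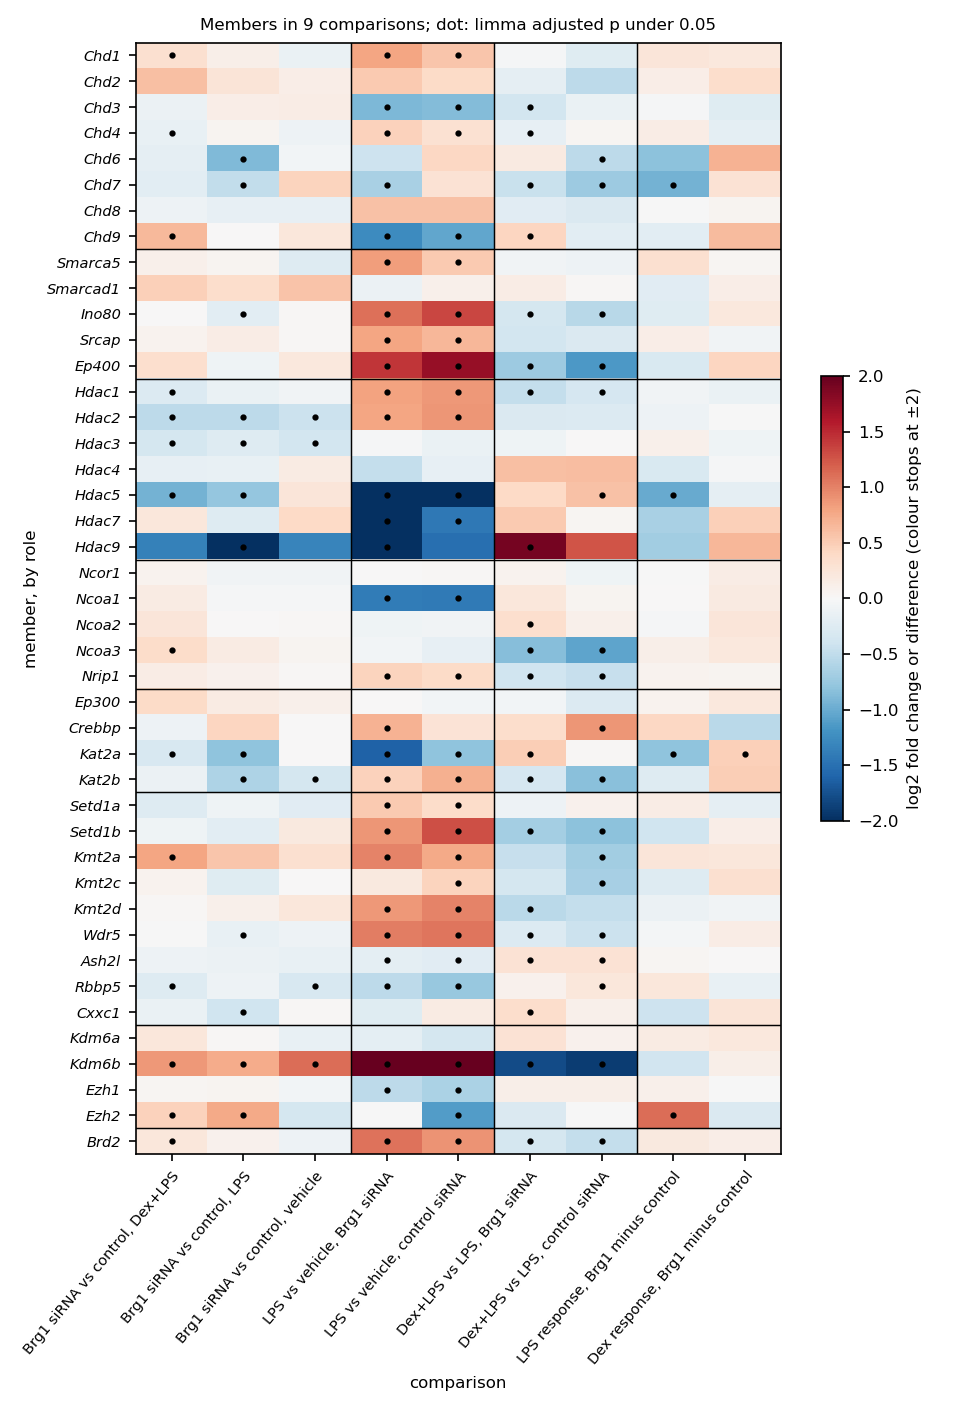
Log2 fold changes of the 43 regulators, by role (rows), in 7 comparisons between groups and for the 2 interactions (columns), with Brg1 siRNA before control siRNA where both exist; dots mark a limma adjusted p under 0.05 and the colour scale stops at 2 in either direction. Kdm6b and Hdac5 exceed that limit for LPS with both siRNAs.

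A difference between the siRNAs in the response itself was tested as an interaction. For LPS it was called for 4 of the 43 genes, Ezh2 higher and Hdac5, Chd7 and Kat2a lower with Brg1 siRNA than with control siRNA, against 6.39% and 5.05% of all genes. For Dex it was called for Kat2a alone, higher, against 2.75% higher and 1.22% lower of all genes. Both counts were the same without the libraries low in long transcripts. For the other genes a call with 1 siRNA and not with the other is not a tested difference.

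**Figure D3:**
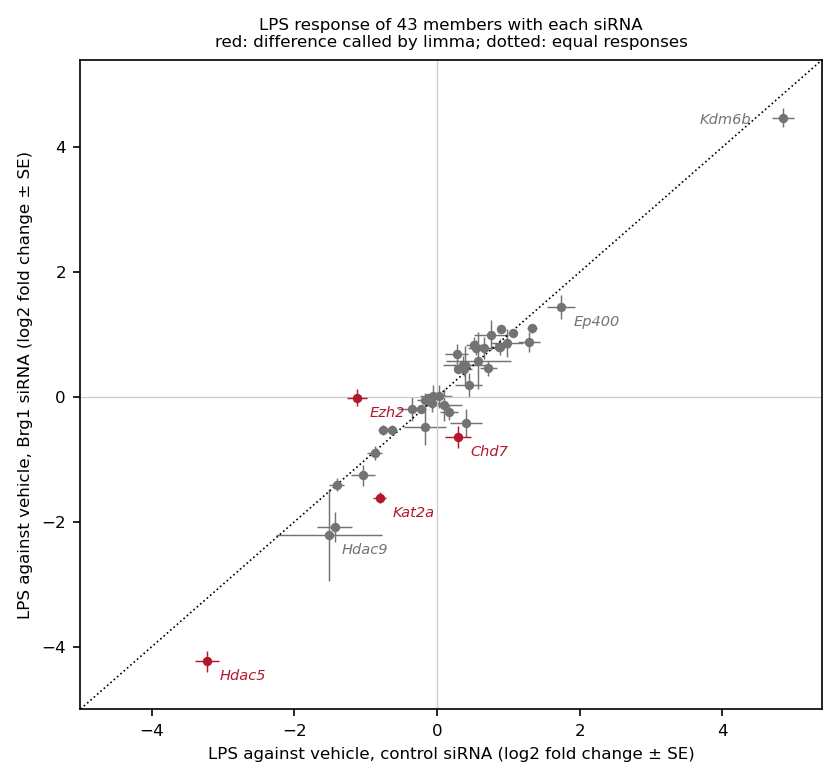
Log2 fold change of each regulator for LPS against vehicle with Brg1 siRNA (y axis) and with control siRNA (x axis), with SE as bars and the line of equal response; red points are the 4 genes called for the difference. Ezh2 lies above the line, and Hdac5, Kat2a and Chd7 lie below it.

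Among the H3K27 methylation writers and erasers, Kdm6b rose with Brg1 siRNA in each treatment and Ezh2 after stimulation, while Ezh1 and Kdm6a were not called. Kdm6b (ENSMUSG00000018476, chromosome 11, 69398508 to 69413675 in GRCm38) encodes a demethylase known to be induced in macrophages by LPS. Its normalized counts in Dex+LPS were 279, 301, 321 and 345 with Brg1 siRNA, against 182, 128, 166 and 217 with control siRNA. In LPS Kdm6b had 1121, 976 and 1132 with Brg1 siRNA, against 666, 605 and 654 with control siRNA. In vehicle Kdm6b had 48.6, 48.5 and 45.2 with Brg1 siRNA, against 17.6, 23.2 and 23.6 with control siRNA. Every Brg1 siRNA library was above every control siRNA library of its treatment, and LPS libraries were far above vehicle libraries. The knockdown difference was called in vehicle (log2 change 1.12, SE 0.15, limma adjusted p = 3.32e-05), in LPS (log2 change 0.74, SE 0.15, limma adjusted p = 0.00103) and in Dex+LPS (log2 change 0.86, SE 0.13, limma adjusted p = 5.6e-05). LPS raised it by a log2 fold change of 4.47 (SE 0.15, limma adjusted p = 8.83e-15) with Brg1 siRNA and 4.85 (SE 0.15, limma adjusted p = 2.75e-15) with control siRNA. Dex then lowered it (log2 change -1.79, SE 0.14, limma adjusted p = 1.12e-08 with Brg1 siRNA; log2 change -1.91, SE 0.14, limma adjusted p = 3.38e-09 with control siRNA). These 7 calls held in all 33 alternatives. The LPS interaction was not called (log2 difference -0.38, SE 0.22, limma adjusted p = 0.309). An antisense transcript, Kdm6bos, overlaps its exons, and which strand was counted is not given in the sources used here.

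Ezh2 (ENSMUSG00000029687, chromosome 6, 47530139 to 47595341) encodes the methyltransferase subunit of the Polycomb complex that is most abundant in dividing cells. Its normalized counts in Dex+LPS were 153, 183, 151 and 124 with Brg1 siRNA, against 123, 106, 115 and 94.9 with control siRNA. In LPS Ezh2 had 185, 183 and 189 with Brg1 siRNA, against 105, 119 and 105 with control siRNA. In vehicle Ezh2 had 215, 181 and 169 with Brg1 siRNA, against 239, 266 and 216 with control siRNA. The siRNA groups were apart after stimulation, with Brg1 siRNA higher, and in vehicle the Brg1 siRNA values were the lower ones. The knockdown difference was called in LPS (log2 change 0.76, SE 0.14, limma adjusted p = 0.000354) and in Dex+LPS (log2 change 0.47, SE 0.12, limma adjusted p = 0.00537), and in vehicle it was not (log2 change -0.35, SE 0.14, limma adjusted p = 0.0826). In vehicle it was called with the replicate block (0.0375), with the number series as a term (0.0423), under plain totals (0.0441) and without Brg1 siRNA vehicle replicate 1 (0.0495), over a range of 0.0375 to 0.273. LPS lowered Ezh2 with control siRNA (log2 change -1.12, SE 0.14, limma adjusted p = 7.83e-07), whereas with Brg1 siRNA the change was not called (log2 change -0.01, SE 0.14, limma adjusted p = 0.934). The responses differed (log2 difference 1.11, SE 0.19, limma adjusted p = 0.000872), a call kept in all 33 alternatives. A cell cycle list moved in these samples too. Of its 30 genes, 0 rose and 22 fell with Brg1 siRNA in vehicle, 2 rose and 20 fell in LPS, and 0 rose and 19 fell in Dex+LPS. LPS raised 1 and lowered 27 of them with Brg1 siRNA and 1 and 27 with control siRNA. The list summed to 9552 to 11329.9 normalized counts with Brg1 siRNA in LPS, against 11226 to 12961 with control siRNA, and to 14183 to 14448 against 19669.6 to 21188 in vehicle. Without the libraries low in long transcripts 16 fell in vehicle. The part of these genes in the Ezh2 result was not tested.

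Ezh1, the other Polycomb methyltransferase, fell with LPS. With Brg1 siRNA Ezh1 had 763, 857 and 762 with LPS, against 1123, 1071 and 1242 with vehicle. With control siRNA Ezh1 had 806, 801 and 694 with LPS, against 1177, 1196 and 1196 with vehicle. The LPS libraries were below all vehicle libraries (log2 change -0.53, SE 0.08, limma adjusted p = 5.07e-06 with Brg1 siRNA; log2 change -0.64, SE 0.08, limma adjusted p = 4.88e-07 with control siRNA), and with every library kept limma called no knockdown or Dex comparison under the authors' scaling. Without the higher number series limma called a Dex rise of Ezh1 with Brg1 siRNA (log2 change 0.20, limma adjusted p = 0.0348). Kdm6a, the demethylase encoded on the X chromosome, ranged from 203 to 484 normalized counts over the 20 libraries. Its largest change was with LPS and control siRNA (log2 change -0.35, SE 0.20, limma adjusted p = 0.112). That value was called without control siRNA Dex+LPS replicate 2 (limma adjusted p = 0.0202), with adjusted p over the alternatives running from 0.000342 to 0.417.

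**Figure D4:**
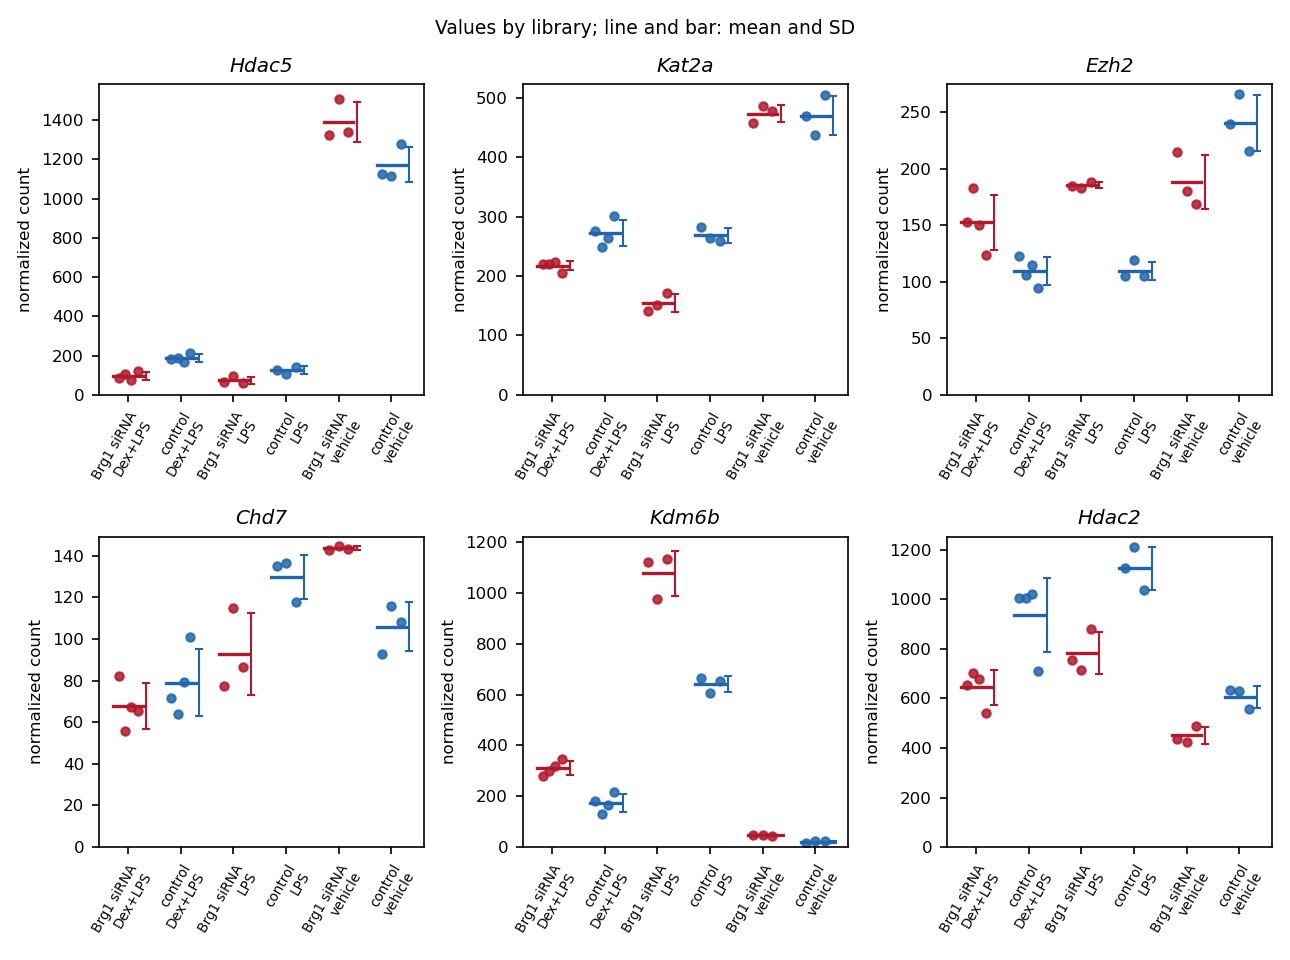
Normalized counts (linear axis from 0) of Hdac5, Kat2a, Ezh2, Chd7, Kdm6b and Hdac2 in each of the 20 libraries, Brg1 siRNA left of control siRNA within each treatment, with lines for group means and bars for the SD. Ezh2 in LPS averages 185 ± 2.87 with Brg1 siRNA and 109.6 ± 8.27 with control siRNA, while Hdac5 and Kat2a in LPS are lower with Brg1 siRNA.

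Of the 7 histone deacetylases, 2 fell with Brg1 siRNA in vehicle and 4 in LPS and in Dex+LPS, where 10.8%, 15.8% and 15.3% of all tested genes fell. Without the libraries low in long transcripts 1 fell in vehicle. No rise among them was called by limma, edgeR or DESeq2, and at an unadjusted limma p under 0.05 their rises numbered 0. Hdac2, a class I deacetylase of the NuRD, Sin3 and CoREST complexes, had normalized counts in Dex+LPS of 653, 703, 679 and 543 with Brg1 siRNA, against 1004, 1005, 1023 and 712 with control siRNA. In LPS Hdac2 had 754, 717 and 881 with Brg1 siRNA, against 1126, 1212 and 1038 with control siRNA. In vehicle Hdac2 had 436, 426 and 489 with Brg1 siRNA, against 633, 631 and 557 with control siRNA. Brg1 siRNA libraries were below control siRNA libraries without overlap in each treatment. The difference was called in Dex+LPS (log2 change -0.53, SE 0.11, limma adjusted p = 0.00127), in LPS (log2 change -0.52, SE 0.13, limma adjusted p = 0.00444) and in vehicle (log2 change -0.43, SE 0.13, limma adjusted p = 0.0248). The call in vehicle ended without both libraries low in long transcripts (0.0751), and without control siRNA vehicle replicate 1 or 2 (0.0844 and 0.0823) or Brg1 siRNA vehicle replicate 1 or 2 (0.0784 and 0.0905). Adjusted p of Hdac2 ran from 0.000944 to 0.0905 over the 33 alternatives. Here and below, parentheses after a library left out or a setting changed give the adjusted p found then. LPS raised Hdac2 with Brg1 siRNA by 0.79 (SE 0.13, limma adjusted p = 2.45e-05) and with control siRNA by 0.89 on the log2 scale (SE 0.13, limma adjusted p = 6.58e-06).

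Hdac3, the catalytic partner of the corepressor Ncor1, had normalized counts in Dex+LPS of 451, 426, 416 and 449.7 with Brg1 siRNA, against 562, 581, 512 and 569 with control siRNA. In LPS Hdac3 had 501, 454 and 433 with Brg1 siRNA, against 538, 573 and 554 with control siRNA. In vehicle Hdac3 had 444, 473 and 490.3 with Brg1 siRNA, against 614, 606 and 595 with control siRNA. The siRNA groups did not overlap in any treatment, and Brg1 siRNA was lower (log2 change -0.35, SE 0.06, limma adjusted p = 0.000179 in Dex+LPS; log2 change -0.26, SE 0.07, limma adjusted p = 0.00689 in LPS; log2 change -0.37, SE 0.07, limma adjusted p = 0.000832 in vehicle). The LPS call ended without the higher number series (0.0508). Hdac3 had an adjusted p of 0.000216 to 0.0508 there over the 33 alternatives. For LPS and for Dex limma did not call Hdac3 with either siRNA under the authors' scaling. EdgeR called an LPS fall with control siRNA (log2 change -0.17, adjusted p = 0.0426), and under plain totals limma called LPS falls and Dex rises with both siRNAs.

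Hdac1, the close relative of Hdac2, had normalized counts in Dex+LPS of 919, 902, 962 and 933 with Brg1 siRNA, against 1094, 1163, 1126 and 1089 with control siRNA, with every Brg1 siRNA library lower (log2 change -0.27, SE 0.05, limma adjusted p = 0.000157). In LPS it averaged 1295 ± 43.7 with Brg1 siRNA and 1415 ± 53.5 with control siRNA (SD, n = 3 each), and in vehicle 741 ± 29.9 and 775 ± 17.4. LPS raised it by 0.80 with Brg1 siRNA (SE 0.05, limma adjusted p = 1.2e-10) and by 0.87 on the log2 scale with control siRNA (SE 0.05, limma adjusted p = 3.98e-11), and Dex lowered it (log2 change -0.48, SE 0.05, limma adjusted p = 2.69e-07 with Brg1 siRNA; log2 change -0.34, SE 0.05, limma adjusted p = 1.43e-05 with control siRNA). Of its 31-base words, 40% also occur in other annotated genes, Gm10093 first, so its counts are uncertain.

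The class IIa deacetylases, which repress through MEF2 factors and have weak catalytic activity of their own, include the regulator that LPS lowered most, Hdac5. Hdac5 (ENSMUSG00000008855, chromosome 11, 102194432 to 102230166), whose promoter window is printed above, had normalized counts in Dex+LPS of 84.6, 106, 78.0 and 123 with Brg1 siRNA, against 181, 188, 168 and 212 with control siRNA. In LPS Hdac5 had 64.8, 94.7 and 62.5 with Brg1 siRNA, against 127, 105 and 143 with control siRNA. In vehicle Hdac5 had 1324, 1508 and 1341 with Brg1 siRNA, against 1127, 1117 and 1276 with control siRNA. Vehicle libraries were far above all stimulated ones, and among the stimulated groups Brg1 siRNA was lower without overlap. LPS lowered Hdac5 by a log2 fold change of -4.24 with Brg1 siRNA (SE 0.17, limma adjusted p = 1.1e-13) and -3.23 with control siRNA (SE 0.17, limma adjusted p = 6.79e-12), and the responses differed (log2 difference -1.01, SE 0.24, limma adjusted p = 0.00995). The knockdown lowered it in LPS (log2 change -0.77, SE 0.17, limma adjusted p = 0.00212) and in Dex+LPS (log2 change -0.95, SE 0.15, limma adjusted p = 7.25e-05) and was not called in vehicle (log2 change 0.25, SE 0.17, limma adjusted p = 0.371). Dex raised it with control siRNA (log2 change 0.58, SE 0.16, limma adjusted p = 0.006). With Brg1 siRNA the Dex change missed the threshold (log2 change 0.40, SE 0.16, limma adjusted p = 0.0516) and passed it in 12 of 33 alternatives, adjusted p running from 0.00148 to 0.212.

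Hdac7 also fell with LPS. With Brg1 siRNA Hdac7 had 41.1, 59.8 and 38.6 with LPS, against 187, 192 and 214 with vehicle. With control siRNA Hdac7 had 45.1, 53.2 and 68.5 with LPS, against 154, 131 and 166 with vehicle. The treatments did not overlap (log2 change -2.09, SE 0.24, limma adjusted p = 4.16e-07 with Brg1 siRNA; log2 change -1.43, SE 0.24, limma adjusted p = 3.83e-05 with control siRNA). Hdac9 was counted rarely: its normalized counts in LPS were 12.5, 16.2 and 0 with Brg1 siRNA, against 32.7, 34.7 and 11.8 with control siRNA, so the siRNA groups overlapped. In vehicle Hdac9 had 17.5, 33.6 and 35.0 with Brg1 siRNA, against 71.1, 87.0 and 55.0 with control siRNA, and in Dex+LPS 34.3, 14.5, 16.0 and 30.5 with Brg1 siRNA, against 68.9, 67.3, 58.0 and 42.8 with control siRNA. These groups did not overlap, yet the knockdown was not called by limma in vehicle (log2 change -1.32, SE 0.74, limma adjusted p = 0.249) or in Dex+LPS (log2 change -1.35, SE 0.64, limma adjusted p = 0.117). Without Brg1 siRNA LPS replicate 3, the library with a 0, limma called it in both (0.0294 in vehicle and 0.00665 in Dex+LPS). DESeq2 also called it in both (0.0334 in vehicle and 0.00943 in Dex+LPS), edgeR in Dex+LPS (0.0409), and the range of adjusted p was 0.0294 to 0.504 in vehicle and 0.00665 to 0.241 in Dex+LPS. Its calls in LPS against vehicle with Brg1 siRNA (log2 change -2.21, SE 0.74, limma adjusted p = 0.0125), in Dex+LPS against LPS with Brg1 siRNA (log2 change 1.92, SE 0.69, limma adjusted p = 0.0317) and for the knockdown in LPS (log2 change -2.02, SE 0.74, limma adjusted p = 0.0447) involve that library. Without it the log2 fold changes were -0.90, 0.61 and -0.71, and without Brg1 siRNA LPS replicate 2 they were -2.96, 2.66 and -2.76. The knockdown call ended with no filter on low values (0.0612), with edgeR on the recovered reads (0.0879), with the compared groups fitted alone (0.237), without both libraries low in long transcripts (0.0575), and without control siRNA vehicle replicate 1, 2 or 3, control siRNA LPS replicate 1 or 2, control siRNA Dex+LPS replicate 1 or 3, Brg1 siRNA vehicle replicate 2 or 3, Brg1 siRNA LPS replicate 3 or Brg1 siRNA Dex+LPS replicate 3 (0.0513 to 0.272). Adjusted p of Hdac9 ran from 0.01 to 0.272 over the 33 alternatives. The LPS call ended with the compared groups fitted alone (0.1), and without Brg1 siRNA LPS replicate 3 (0.0865). Hdac9 had an adjusted p of 0.00165 to 0.1 there over the 33 alternatives. The Dex call ended with edgeR on the recovered reads (0.083), with the compared groups fitted alone (0.147), and without Brg1 siRNA LPS replicate 3 (0.284) or Brg1 siRNA Dex+LPS replicate 1 or 4 (0.0779 and 0.0678). Adjusted p of Hdac9 ran from 0.00615 to 0.284 over the 33 alternatives. Hdac4 ranged from 84.8 to 313 normalized counts and was called by limma in none of the 9 comparisons. Its Dex rise with control siRNA (log2 change 0.62, SE 0.28, limma adjusted p = 0.0762) was called in 9 of 33 alternatives, edgeR (0.0454) and DESeq2 (0.0466) among them, over a range of 0.011 to 0.25. With Brg1 siRNA that rise (log2 change 0.60, SE 0.28, limma adjusted p = 0.0916; range 0.0106 to 0.506) and the LPS fall (log2 change -0.48, SE 0.30, limma adjusted p = 0.156; range 0.00215 to 0.7) were each called in 4, the number series as a term among them.

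Of the 4 acetyltransferases, limma called Kat2a and Kat2b lower with Brg1 siRNA and called no knockdown difference of Ep300 or Crebbp. In vehicle 1 fell, in LPS 2 and in Dex+LPS 1, where 10.8%, 15.8% and 15.3% of all tested genes fell. Kat2a (ENSMUSG00000020918, chromosome 11, 100704746 to 100712465), the acetyltransferase also called GCN5, had normalized counts in Dex+LPS of 219.6, 221, 224 and 206 with Brg1 siRNA, against 275, 249, 264 and 301 with control siRNA. In LPS Kat2a had 141, 151 and 172 with Brg1 siRNA, against 283, 264 and 259 with control siRNA. In vehicle Kat2a had 457, 486 and 478 with Brg1 siRNA, against 469, 438 and 504 with control siRNA. The siRNA groups overlapped in vehicle and were apart in LPS and Dex+LPS, with Brg1 siRNA lower (log2 change -0.80, SE 0.09, limma adjusted p = 2.03e-06 in LPS; log2 change -0.32, SE 0.08, limma adjusted p = 0.00357 in Dex+LPS; log2 change 0.01, SE 0.09, limma adjusted p = 0.955 in vehicle). LPS lowered Kat2a by 1.61 on the log2 scale with Brg1 siRNA and 0.80 with control siRNA, and the interaction was called (log2 difference -0.81, SE 0.13, limma adjusted p = 0.000293). Dex raised it with Brg1 siRNA (log2 change 0.50, SE 0.08, limma adjusted p = 9.16e-05) and was not called with control siRNA (log2 change 0.02, SE 0.08, limma adjusted p = 0.887). The Dex interaction was called (log2 difference 0.48, SE 0.12, limma adjusted p = 0.0265). It shares the LPS libraries with the LPS interaction, so the low Brg1 siRNA LPS values enter both. The Dex interaction ended with the compared groups fitted alone (0.0834), and without control siRNA LPS replicate 1 (0.078), Brg1 siRNA LPS replicate 1 or 2 (0.0759 and 0.0603) or Brg1 siRNA Dex+LPS replicate 3 (0.0533). Kat2a had an adjusted p of 0.0135 to 0.0834 there over the 33 alternatives.

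Kat2b, the paralog also called PCAF, had normalized counts in LPS of 853, 750.2 and 849 with Brg1 siRNA, against 1240.1, 1366 and 1140.2 with control siRNA, all Brg1 siRNA libraries being lower (log2 change -0.61, SE 0.12, limma adjusted p = 0.000713). In vehicle Kat2b had 621, 587 and 570.4 with Brg1 siRNA, against 729, 820.3 and 727 with control siRNA (log2 change -0.35, SE 0.12, limma adjusted p = 0.0449). In Dex+LPS Kat2b had 597, 582, 688 and 723 with Brg1 siRNA, against 789, 545, 761 and 721 with control siRNA, with overlap (log2 change -0.11, SE 0.10, limma adjusted p = 0.442). The vehicle call ended with no filter on low values (0.0582), and without control siRNA vehicle replicate 1, 2 or 3, control siRNA LPS replicate 1, control siRNA Dex+LPS replicate 4, Brg1 siRNA vehicle replicate 1, 2 or 3, Brg1 siRNA LPS replicate 1 or 3 or Brg1 siRNA Dex+LPS replicate 3 (0.05 to 0.161). Adjusted p of Kat2b ran from 0.00779 to 0.161 over the 33 alternatives. The Dex+LPS difference was called without control siRNA Dex+LPS replicate 2 (log2 fold change -0.23, limma adjusted p = 0.0456), with adjusted p from 0.0456 to 0.753 over the alternatives. Relative to the authors' scaling LPS raised Kat2b (log2 change 0.46, SE 0.12, limma adjusted p = 0.00218 with Brg1 siRNA; log2 change 0.72, SE 0.12, limma adjusted p = 3.31e-05 with control siRNA), and Dex lowered it (log2 change -0.34, SE 0.11, limma adjusted p = 0.0202 with Brg1 siRNA; log2 change -0.84, SE 0.11, limma adjusted p = 6.59e-06 with control siRNA). Under plain library totals the LPS value with Brg1 siRNA turned negative and that with control siRNA was not called. The Dex call with Brg1 siRNA ended without Brg1 siRNA LPS replicate 1 or 3 (0.0737 and 0.0702) or Brg1 siRNA Dex+LPS replicate 1 or 2 (0.0552 and 0.0616). Kat2b had an adjusted p of 0.00309 to 0.967 there over the 33 alternatives. A pseudogene, Kat2b-ps, holds most of the 14.6% of its words that occur elsewhere.

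Crebbp, an enhancer acetyltransferase, had 664, 651, 806 and 543 with Dex+LPS and control siRNA, against 330.3, 397 and 344 with LPS, and rose without overlap (log2 change 0.89, SE 0.15, limma adjusted p = 0.000111). With Brg1 siRNA Crebbp had 806, 605, 582 and 500.5 with Dex+LPS, against 436, 532 and 475 with LPS (log2 change 0.36, SE 0.15, limma adjusted p = 0.0693), which was called without Brg1 siRNA Dex+LPS replicate 4 (log2 fold change 0.45, limma adjusted p = 0.0247), where adjusted p over the alternatives ran from 0.000854 to 0.226. In LPS Crebbp was higher with Brg1 siRNA without overlap, just short of the limma threshold (log2 change 0.43, SE 0.16, limma adjusted p = 0.0537). That difference was called by DESeq2 (0.0442), with the replicate block (0.0308), in the authors' deposited table (0.0488) and in 11 of 33 alternatives in all, adjusted p running from 0.0284 to 0.199. Its LPS rise was called with Brg1 siRNA (log2 change 0.69, SE 0.16, limma adjusted p = 0.00105) and not with control siRNA (log2 change 0.27, SE 0.16, limma adjusted p = 0.143). Ep300, its close relative, averaged 1797 ± 35.2 with Brg1 siRNA and 1608 ± 119 with control siRNA in LPS (SD, n = 3 each) and was called in no comparison by limma. Without both libraries low in long transcripts it was called for the knockdown in LPS (0.0239) and in Dex+LPS (0.0477), over ranges of 0.0239 to 0.941 and 0.039 to 0.217. Its value in control siRNA Dex+LPS replicate 2 lay apart from the other 3 of its group.

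Of the 5 nuclear receptor coregulators 1 was called for the knockdown, Ncoa3 in Dex+LPS, and Dex lowered 2 with either siRNA. In LPS 1 rose with Brg1 siRNA when the libraries low in long transcripts were left out. Over all tested genes 19.0% rose with Brg1 siRNA in Dex+LPS and 17.3% in LPS. Dex lowered 23.0% of them with Brg1 siRNA and 25.2% with control siRNA. Ncoa3, a coactivator of the steroid receptor coactivator family, had, with Brg1 siRNA, normalized counts of 1386, 1475, 1387 and 1404 with Dex+LPS, against 2466, 2603 and 2544 with LPS. With control siRNA Ncoa3 had 1154, 813, 1182 and 1283 with Dex+LPS, against 2369, 2140.3 and 2286 with LPS. Dex+LPS libraries lay below all LPS libraries (log2 change -0.84, SE 0.11, limma adjusted p = 5.91e-06 with Brg1 siRNA; log2 change -1.05, SE 0.11, limma adjusted p = 3.32e-07 with control siRNA). In Dex+LPS the Brg1 siRNA values were the higher ones (log2 change 0.37, SE 0.10, limma adjusted p = 0.00899), a call that ended with the compared groups fitted alone (0.0673). Adjusted p of Ncoa3 ran from 0.00267 to 0.0673 over the 33 alternatives. Ncoa1, its relative, fell with LPS. With Brg1 siRNA Ncoa1 had 262, 260.4 and 258 with LPS, against 683, 664 and 724 with vehicle. With control siRNA Ncoa1 had 283, 245 and 266 with LPS, against 674, 726 and 710.4 with vehicle. Vehicle libraries were well above (log2 change -1.40, SE 0.11, limma adjusted p = 9.82e-10 with Brg1 siRNA; log2 change -1.41, SE 0.11, limma adjusted p = 9.71e-10 with control siRNA). Ncoa2, known in macrophages as the glucocorticoid receptor cofactor GRIP1, had, with Brg1 siRNA, normalized counts of 1089, 1088, 1079 and 1243 with Dex+LPS, against 884, 906 and 873 with LPS (log2 change 0.34, SE 0.13, limma adjusted p = 0.0486). That call ended with no filter on low values (0.064), with the replicate block (0.106), without the higher number series (0.157), and without control siRNA vehicle replicate 3, control siRNA LPS replicate 1, 2 or 3, control siRNA Dex+LPS replicate 1 or 3, Brg1 siRNA vehicle replicate 2 or 3, Brg1 siRNA LPS replicate 1, 2 or 3 or Brg1 siRNA Dex+LPS replicate 1, 2, 3 or 4 (0.0507 to 0.114). Ncoa2 had an adjusted p of 0.000551 to 0.157 there over the 33 alternatives. With control siRNA Ncoa2 had 1032, 695, 1048 and 1087 with Dex+LPS, against 979, 862 and 821 with LPS, with overlap (log2 change 0.10, SE 0.13, limma adjusted p = 0.557), and without replicate 2 of Dex+LPS the change was called (log2 fold change 0.25, limma adjusted p = 0.0489), over a range of 0.0166 to 0.954. Nrip1, a ligand-dependent corepressor also called RIP140, had, with Brg1 siRNA, normalized counts of 312, 289.9, 268 and 286 with Dex+LPS, against 406, 335 and 406 with LPS. Nrip1 was lowered by Dex (log2 change -0.40, SE 0.11, limma adjusted p = 0.00505 with Brg1 siRNA; log2 change -0.46, SE 0.11, limma adjusted p = 0.00163 with control siRNA). Its LPS rise (0.45 with Brg1 siRNA and 0.38 with control siRNA, log2) turned negative under plain library totals. Ncor1, the corepressor that holds Hdac3, ranged from 1546 to 2917 normalized counts and was called nowhere by limma under the authors' scaling, its log2 fold changes lying between -0.09 and 0.07 in the 7 comparisons between groups.

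**Figure D5:**
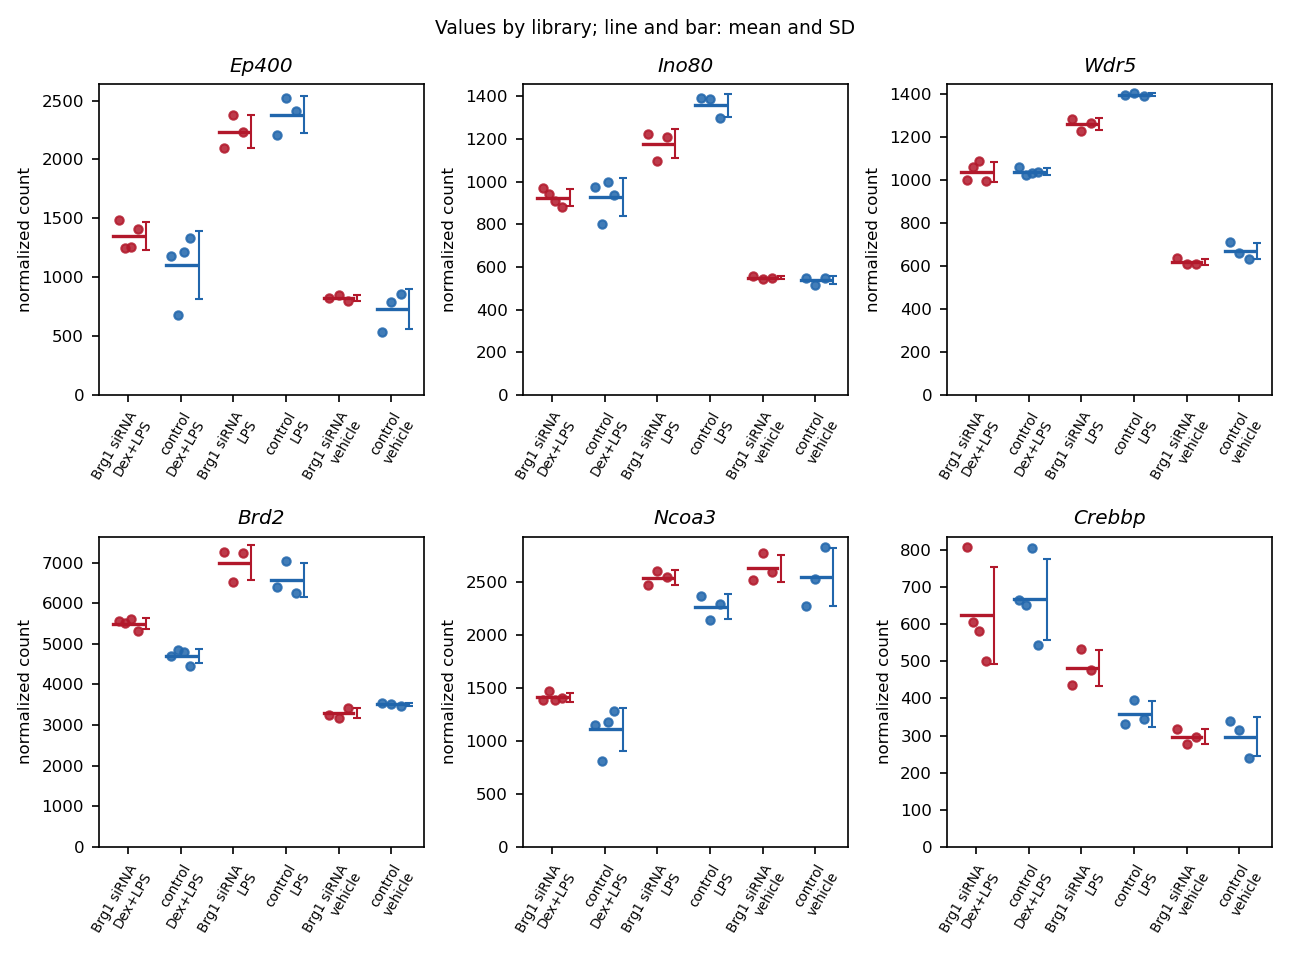
Normalized counts (linear axis from 0) of Ep400, Ino80, Wdr5, Brd2, Ncoa3 and Crebbp in each of the 20 libraries, Brg1 siRNA left of control siRNA within each treatment, with lines for group means and bars for the SD. Ep400 in LPS averages 2236 ± 139.8 with Brg1 siRNA and 2379 ± 156 with control siRNA, above its Dex+LPS and vehicle values.

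Of 9 COMPASS subunits LPS raised 5 and lowered 2 with Brg1 siRNA, and raised 6 and lowered 2 with control siRNA, where 35.4% of all genes rose and 37.4% fell with Brg1 siRNA, and 36.0% and 37.0% with control siRNA. Without the libraries low in long transcripts 5 rose with control siRNA. Under plain library totals the rises of Setd1b with control siRNA and of Wdr5 with both siRNAs were the ones still called. Rbbp5 and Ash2l were then lower as before, and Cxxc1 was called lower with both siRNAs (log2 change -0.93 with Brg1 siRNA and -0.41 with control siRNA) and Kmt2c with Brg1 siRNA (-0.49), so that more were lowered than raised. Wdr5, a core subunit shared by all COMPASS-type complexes, had, with Brg1 siRNA, normalized counts of 1285, 1229 and 1267 with LPS, against 635, 611 and 611 with vehicle. With control siRNA Wdr5 had 1395, 1406 and 1392 with LPS, against 709.8, 662 and 634 with vehicle. LPS libraries were above all vehicle libraries (log2 change 1.02, SE 0.05, limma adjusted p = 4.22e-12 with Brg1 siRNA; log2 change 1.06, SE 0.05, limma adjusted p = 2.58e-12 with control siRNA). Dex+LPS libraries held 1002, 1060.3, 1091 and 997 with Brg1 siRNA and 1061, 1026, 1033 and 1037 with control siRNA, below LPS (log2 change -0.28, SE 0.05, limma adjusted p = 0.000154 with Brg1 siRNA, positive under plain totals; log2 change -0.43, SE 0.05, limma adjusted p = 1.14e-06 with control siRNA). The knockdown difference in LPS was small (log2 change -0.15, SE 0.05, limma adjusted p = 0.039) and ended with no filter on low values (0.0558), without the higher number series (0.148), and without control siRNA LPS replicate 1, 2 or 3 (0.0826, 0.0892 and 0.0764) or Brg1 siRNA LPS replicate 1, 2 or 3 (0.0567, 0.116 and 0.0748). Adjusted p of Wdr5 ran from 0.000317 to 0.148 over the 33 alternatives.

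Setd1b, a catalytic subunit that methylates H3 at promoters, had, with Brg1 siRNA, normalized counts of 769, 729 and 782 with LPS, against 400.2, 418 and 418 with vehicle. With control siRNA Setd1b had 862, 814 and 979 with LPS, against 295, 435 and 368 with vehicle. It rose with LPS (log2 change 0.88, SE 0.16, limma adjusted p = 6.13e-05 with Brg1 siRNA; log2 change 1.29, SE 0.16, limma adjusted p = 6.97e-07 with control siRNA) and fell with Dex (log2 change -0.68, SE 0.15, limma adjusted p = 0.001 with Brg1 siRNA; log2 change -0.81, SE 0.15, limma adjusted p = 0.000159 with control siRNA). Kmt2a, the methyltransferase also called MLL and one of the longest transcripts here, had normalized counts in Dex+LPS of 1225, 981, 899.7 and 1075 with Brg1 siRNA, against 645, 344, 815 and 719 with control siRNA. In LPS Kmt2a had 1444, 1242 and 1632 with Brg1 siRNA, against 1007, 1087 and 842 with control siRNA. In vehicle Kmt2a had 749, 676 and 726 with Brg1 siRNA, against 424, 668 and 677 with control siRNA. In Dex+LPS the lowest value was that of control siRNA replicate 2, and the groups did not overlap (log2 change 0.79, SE 0.21, limma adjusted p = 0.00676, called in all 33 alternatives, that without the libraries low in long transcripts included). The LPS difference was not called (log2 change 0.56, SE 0.24, limma adjusted p = 0.0878) but was without control siRNA Dex+LPS replicate 2 (limma adjusted p = 0.013), over a range of 0.00241 to 0.241. LPS raised it (log2 change 1.00, SE 0.24, limma adjusted p = 0.00121 with Brg1 siRNA; log2 change 0.75, SE 0.24, limma adjusted p = 0.00943 with control siRNA), and the call with control siRNA ended without control siRNA vehicle replicate 1 (0.0671). Kmt2a had an adjusted p of 0.000501 to 0.527 there over the 33 alternatives. Its Dex fall with control siRNA (log2 change -0.70, SE 0.23, limma adjusted p = 0.0163) ended with the compared groups fitted alone (0.0799), and without control siRNA LPS replicate 2 (0.0659). Adjusted p of Kmt2a ran from 0.00571 to 0.145 over the 33 alternatives. With Brg1 siRNA the Dex change was not called (log2 change -0.46, SE 0.23, limma adjusted p = 0.107), though it was without control siRNA Dex+LPS replicate 2 (limma adjusted p = 0.0193; spanning 0.00397 to 0.656).

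Kmt2d, an enhancer methyltransferase, had, with Brg1 siRNA, normalized counts of 893, 978 and 679.7 with LPS, against 415, 451 and 525 with vehicle, and, with control siRNA, of 765, 757 and 836 with LPS, against 359, 359 and 482 with vehicle. It rose with LPS relative to the authors' scaling (log2 change 0.86, SE 0.23, limma adjusted p = 0.00223 with Brg1 siRNA; log2 change 0.99, SE 0.23, limma adjusted p = 0.000745 with control siRNA). Its Dex fall with Brg1 siRNA (log2 change -0.55, SE 0.21, limma adjusted p = 0.0435) came from overlapping groups, 529.6, 563, 426 and 862 with Dex+LPS, against 893, 978 and 679.7 with LPS, and ended with no filter on low values (0.0569), with edgeR on the recovered reads (0.0778), with the compared groups fitted alone (0.0985), and without control siRNA LPS replicate 1 or 2, Brg1 siRNA vehicle replicate 2, Brg1 siRNA LPS replicate 1 or 2 or Brg1 siRNA Dex+LPS replicate 1, 2 or 3 (0.0508 to 0.162). Kmt2d had an adjusted p of 0.00421 to 0.426 there over the 33 alternatives. Kmt2c, its paralog, had normalized counts with control siRNA of 740.3, 402, 792 and 738 with Dex+LPS, against 1112, 949 and 1032 with LPS and fell with Dex (log2 change -0.67, SE 0.18, limma adjusted p = 0.00422). Without Dex+LPS replicate 2 the log2 fold change was -0.44 and still called. With Brg1 siRNA the Dex change of Kmt2c was not called (log2 change -0.36, SE 0.18, limma adjusted p = 0.11), and without control siRNA Dex+LPS replicate 2, it was (limma adjusted p = 0.00846; spanning 0.00321 to 0.917). The LPS rise of Kmt2c with control siRNA (log2 change 0.44, SE 0.19, limma adjusted p = 0.0426) ended with no filter on low values (0.0538), with edgeR on the recovered reads (0.0529), without the higher number series (0.101), with the number series as a term (0.0584), and without control siRNA vehicle replicate 1 or 2 (0.178 and 0.0512) or control siRNA LPS replicate 1 or 3 (0.119 and 0.0808). Adjusted p of Kmt2c ran from 0.00158 to 0.524 over the 33 alternatives. Setd1a, the paralog of Setd1b, rose with LPS (log2 change 0.52, SE 0.14, limma adjusted p = 0.0034 with Brg1 siRNA; log2 change 0.36, SE 0.14, limma adjusted p = 0.0303 with control siRNA) and turned negative under plain library totals. The control siRNA groups overlapped and that call ended with edgeR on the recovered reads (0.0579), with the compared groups fitted alone (0.0534), without the higher number series (0.0979), with the number series as a term (0.0545), without both libraries low in long transcripts (0.0542), and without control siRNA vehicle replicate 1 or 2 (0.16 and 0.0816) or control siRNA LPS replicate 2 or 3 (0.0591 and 0.108). Setd1a had an adjusted p of 0.00476 to 0.182 there over the 33 alternatives. The knockdown difference of Setd1a was not called in vehicle (limma adjusted p = 0.292) or in Dex+LPS (limma adjusted p = 0.117). Without both libraries low in long transcripts limma called it lower with Brg1 siRNA in vehicle (log2 change -0.35, limma adjusted p = 0.0329). The same held in Dex+LPS (log2 change -0.39, limma adjusted p = 0.00311). A readthrough gene, Gm49388, shares most of the 51.8% of its words found elsewhere, so its counts are uncertain.

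Rbbp5, a core subunit, fell with Brg1 siRNA and with LPS. In vehicle Rbbp5 had 690.4, 774 and 726 with Brg1 siRNA, against 971, 934 and 837 with control siRNA. In Dex+LPS Rbbp5 had 554, 544, 548 and 492 with Brg1 siRNA, against 656, 627, 683 and 583 with control siRNA. Brg1 siRNA was lower without overlap in both (log2 change -0.32, SE 0.07, limma adjusted p = 0.00434 in vehicle; log2 change -0.25, SE 0.06, limma adjusted p = 0.00528 in Dex+LPS). In LPS Rbbp5 had 517, 489.7 and 508 with Brg1 siRNA, against 558, 544 and 523 with control siRNA, not called between the siRNAs (log2 change -0.10, SE 0.07, limma adjusted p = 0.329) and below vehicle with both (log2 change -0.53, SE 0.07, limma adjusted p = 4.31e-06 with Brg1 siRNA; log2 change -0.75, SE 0.07, limma adjusted p = 4.74e-08 with control siRNA). Dex raised it with control siRNA (log2 change 0.23, SE 0.07, limma adjusted p = 0.0102), a call that ended with the compared groups fitted alone (0.0565). Adjusted p of Rbbp5 ran from 2.44e-06 to 0.0565 over the 33 alternatives. Ash2l, the core subunit beside it, had, with Brg1 siRNA, normalized counts of 682, 673, 649.7 and 600.2 with Dex+LPS, against 539.9, 521 and 534 with LPS. With control siRNA Ash2l had 729, 701, 689.8 and 687 with Dex+LPS, against 575, 579.6 and 568 with LPS. It was the gene that Dex raised with both siRNAs (log2 change 0.29, SE 0.06, limma adjusted p = 0.000358 with Brg1 siRNA; log2 change 0.29, SE 0.06, limma adjusted p = 0.000332 with control siRNA), and LPS had lowered it slightly (-0.19 with Brg1 siRNA and -0.23 with control siRNA, log2). Cxxc1, which guides the Setd1 complexes to unmethylated CpG islands, had normalized counts in LPS of 303, 343 and 297 with Brg1 siRNA, against 395, 389 and 459 with control siRNA and fell (log2 change -0.40, SE 0.12, limma adjusted p = 0.02). The call ended without control siRNA LPS replicate 3 (0.0939) or Brg1 siRNA LPS replicate 1 or 3 (0.0628 and 0.0714). Cxxc1 had an adjusted p of 0.000807 to 0.0939 there over the 33 alternatives. It rose with Dex in Brg1 siRNA cells (log2 change 0.36, SE 0.12, limma adjusted p = 0.0179), with 357, 358, 435 and 472 with Dex+LPS, against 303, 343 and 297 with LPS. That call ended without Brg1 siRNA LPS replicate 1 or 3 (0.0613 and 0.0701) or Brg1 siRNA Dex+LPS replicate 3 or 4 (0.0504 and 0.0586). Adjusted p of Cxxc1 ran from 0.00015 to 0.0701 over the 33 alternatives.

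In the CHD family 2 of 8 fell with Brg1 siRNA in LPS, and 2 rose and 1 fell in Dex+LPS, where 1 rose and 0 fell without the libraries low in long transcripts. Over all tested genes 15.8% fell in LPS, and 19.0% rose and 15.3% fell in Dex+LPS. In vehicle limma, edgeR and DESeq2 called 0 of 8, and 1 had an unadjusted limma p under 0.05. Chd7, a remodeller found at enhancers, had normalized counts in LPS of 77.3, 115 and 86.4 with Brg1 siRNA, against 135, 137 and 118 with control siRNA. In vehicle Chd7 had 143, 145 and 143 with Brg1 siRNA, against 92.9, 116 and 108 with control siRNA. In Dex+LPS Chd7 had 82.4, 55.7, 67.3 and 65.6 with Brg1 siRNA, against 71.6, 64.1, 79.4 and 101 with control siRNA. Brg1 siRNA values were the lower ones in LPS and the higher ones in vehicle (log2 change -0.50, SE 0.18, limma adjusted p = 0.0386 in LPS; log2 change 0.44, SE 0.18, limma adjusted p = 0.091 in vehicle). The vehicle difference was called with the compared groups fitted alone (0.0298) and without the higher number series (0.0414). The LPS call ended with no filter on low values (0.0599), with the compared groups fitted alone (0.0829), and without control siRNA LPS replicate 1 or 2 (0.102 and 0.101) or Brg1 siRNA LPS replicate 1 or 3 (0.163 and 0.106). Chd7 had an adjusted p of 0.00772 to 0.163 there over the 33 alternatives. LPS lowered Chd7 with Brg1 siRNA (log2 change -0.64, SE 0.18, limma adjusted p = 0.00326) and was not called with control siRNA (log2 change 0.30, SE 0.18, limma adjusted p = 0.141), and the responses differed (log2 difference -0.94, SE 0.25, limma adjusted p = 0.0192). The interaction ended without control siRNA vehicle replicate 1 (0.0542) or Brg1 siRNA LPS replicate 1 (0.0563). Adjusted p of Chd7 ran from 0.00492 to 0.0563 over the 33 alternatives. Dex lowered it with control siRNA (log2 change -0.73, SE 0.17, limma adjusted p = 0.00138) and, from overlapping groups, with Brg1 siRNA (log2 change -0.44, SE 0.17, limma adjusted p = 0.0377), where the call ended with no filter on low values (0.059), with the compared groups fitted alone (0.103), without the higher number series (0.205), and without Brg1 siRNA LPS replicate 2 or 3 (0.216 and 0.0561) or Brg1 siRNA Dex+LPS replicate 2, 3 or 4 (0.111, 0.0617 and 0.0646). Chd7 had an adjusted p of 0.0167 to 0.601 there over the 33 alternatives.

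Chd6 had normalized counts in LPS of 300.5, 300.3 and 366 with Brg1 siRNA, against 559, 712 and 517 with control siRNA, with every Brg1 siRNA library lower (log2 change -0.88, SE 0.22, limma adjusted p = 0.00532), a call kept in all 33 alternatives. Its LPS interaction was not called (log2 difference -0.83, SE 0.31, limma adjusted p = 0.105), though it was without control siRNA Dex+LPS replicate 2 (limma adjusted p = 0.04, over a range of 0.04 to 0.241). Its Dex fall with control siRNA (log2 change -0.53, SE 0.21, limma adjusted p = 0.0451) came from overlapping groups, 396, 271, 531 and 494 with Dex+LPS, against 559, 712 and 517 with LPS, and ended with TMM factors (0.0597), with no filter on low values (0.0586), with edgeR on the recovered reads (0.0775), with the compared groups fitted alone (0.111), with the replicate block (0.0662), without both libraries low in long transcripts (0.143), and without control siRNA vehicle replicate 2, control siRNA LPS replicate 1 or 2, control siRNA Dex+LPS replicate 1 or 2, Brg1 siRNA vehicle replicate 1, Brg1 siRNA LPS replicate 1 or 2 or Brg1 siRNA Dex+LPS replicate 2 or 3 (0.0508 to 0.19). Adjusted p of Chd6 ran from 0.0187 to 0.369 over the 33 alternatives. Chd9, another member of the same subfamily, had normalized counts in Dex+LPS of 331, 268, 324 and 260.4 with Brg1 siRNA, against 209, 138, 225 and 192 with control siRNA, Brg1 siRNA being higher (log2 change 0.64, SE 0.14, limma adjusted p = 0.00198, called in all 33 alternatives). In LPS Chd9 had 217, 189 and 255 with Brg1 siRNA, against 216, 200.1 and 239 with control siRNA, and in vehicle 566, 473 and 532 with Brg1 siRNA, against 379, 457 and 516 with control siRNA. LPS lowered it (log2 change -1.25, SE 0.17, limma adjusted p = 2.16e-06 with Brg1 siRNA; log2 change -1.03, SE 0.17, limma adjusted p = 2.09e-05 with control siRNA), and Dex raised it with Brg1 siRNA (log2 change 0.42, SE 0.16, limma adjusted p = 0.034). The Dex call ended without the higher number series (0.128), and without Brg1 siRNA LPS replicate 1 or 2 (0.0802 and 0.154) or Brg1 siRNA Dex+LPS replicate 1 or 3 (0.0892 and 0.0841). Chd9 had an adjusted p of 0.000482 to 0.154 there over the 33 alternatives.

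Chd3, an ATPase of NuRD, had, with Brg1 siRNA, normalized counts of 929, 1046 and 1084 with LPS, against 1779.5, 2092 and 1826 with vehicle. With control siRNA Chd3 had 837, 902 and 1069 with LPS, against 1547, 1680.5 and 1908 with vehicle. It fell with LPS (log2 change -0.90, SE 0.11, limma adjusted p = 5.22e-07 with Brg1 siRNA; log2 change -0.87, SE 0.11, limma adjusted p = 7.26e-07 with control siRNA), and further with Dex in Brg1 siRNA cells (log2 change -0.37, SE 0.10, limma adjusted p = 0.00561). Chd4, the paralog with far more transcript per kb, had normalized counts in Dex+LPS of 5270.0, 5218, 5151 and 4783 with Brg1 siRNA, against 5411, 5754, 6064 and 5460.2 with control siRNA and was slightly lower with Brg1 siRNA (log2 change -0.15, SE 0.05, limma adjusted p = 0.0311), a call that ended with no filter on low values (0.0507), with the compared groups fitted alone (0.108), without the higher number series (0.0698), without both libraries low in long transcripts (0.059), and without control siRNA Dex+LPS replicate 2 or 3 (0.054 and 0.101) or Brg1 siRNA Dex+LPS replicate 3 or 4 (0.0523 and 0.0938). Adjusted p of Chd4 ran from 0.0003 to 0.108 over the 33 alternatives. Its LPS rise (0.45 with Brg1 siRNA and 0.30 with control siRNA, log2) was a called fall under plain library totals, so the direction is set by the scaling. Its Dex fall with Brg1 siRNA (log2 change -0.16, SE 0.06, limma adjusted p = 0.0253) likewise was a called rise under plain totals and ended with TMM factors (0.0561), with edgeR on the recovered reads (0.0589), and without Brg1 siRNA LPS replicate 1 or 3 (0.0566 and 0.141) or Brg1 siRNA Dex+LPS replicate 4 (0.0738). Chd4 had an adjusted p of 0.00736 to 0.141 there over the 33 alternatives. Chd1, which binds methylated histone H3 at active promoters, had normalized counts in Dex+LPS of 1604, 1555, 1567 and 1407 with Brg1 siRNA, against 1477, 973, 1292 and 1214 with control siRNA, with overlap and Brg1 siRNA higher on average (log2 change 0.32, SE 0.10, limma adjusted p = 0.0229). Control siRNA replicate 2 was the lowest of these 8 libraries. The call ended with the compared groups fitted alone (0.0802), without both libraries low in long transcripts (0.0616), and without control siRNA Dex+LPS replicate 2 (0.0799) or Brg1 siRNA Dex+LPS replicate 1, 2 or 3 (0.0583, 0.0504 and 0.0523). Adjusted p of Chd1 ran from 0.00431 to 0.106 over the 33 alternatives. Chd2, at 216 to 998 normalized counts, and Chd8, at 176 to 896, were called in no comparison by limma. Chd2 was called for LPS without control siRNA Dex+LPS replicate 2, with log2 fold changes of 0.52 with Brg1 siRNA (limma adjusted p = 0.00261; spanning 0.000214 to 0.632) and 0.39 with control siRNA (limma adjusted p = 0.0169; spanning 0.0169 to 0.58).

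Of the other remodelling ATPases, LPS raised 4 of 5 with either siRNA, Ino80 and Ep400 under both scalings and Smarca5 and Srcap under the authors' scaling, and Smarcad1 was called nowhere by limma. Over all tested genes LPS raised 35.4% with Brg1 siRNA and 36.0% with control siRNA. Ep400, which exchanges histone H2A variants in the Tip60 complex, had, with Brg1 siRNA, normalized counts of 2099.6, 2379 and 2229 with LPS, against 823, 851 and 799 with vehicle. With control siRNA Ep400 had 2211, 2519.8 and 2408 with LPS, against 532, 791 and 858 with vehicle. Dex+LPS libraries held 1482, 1249, 1258 and 1412 with Brg1 siRNA and 1183, 679.7, 1209.7 and 1331 with control siRNA. All lay below LPS, and those of control siRNA overlapped vehicle through replicate 2. The LPS rise (log2 change 1.44, SE 0.19, limma adjusted p = 2.42e-06 with Brg1 siRNA; log2 change 1.74, SE 0.19, limma adjusted p = 2.18e-07 with control siRNA) and the Dex fall (log2 change -0.73, SE 0.18, limma adjusted p = 0.00298 with Brg1 siRNA; log2 change -1.15, SE 0.18, limma adjusted p = 3.64e-05 with control siRNA) were both called. Ino80, the ATPase of the INO80 complex, had, with Brg1 siRNA, normalized counts of 1223, 1099 and 1209 with LPS, against 556, 543 and 549 with vehicle. With control siRNA Ino80 had 1391, 1386 and 1297 with LPS, against 549, 516 and 548 with vehicle. It rose with LPS (log2 change 1.10, SE 0.07, limma adjusted p = 2.16e-10 with Brg1 siRNA; log2 change 1.33, SE 0.07, limma adjusted p = 1.23e-11 with control siRNA) and fell with Dex (log2 change -0.35, SE 0.07, limma adjusted p = 0.000519 with Brg1 siRNA; log2 change -0.55, SE 0.07, limma adjusted p = 2.95e-06 with control siRNA). The siRNA groups differed slightly in LPS (log2 change -0.21, SE 0.07, limma adjusted p = 0.0397), and that call ended with no filter on low values (0.054), without the higher number series (0.129), and without control siRNA LPS replicate 1 or 2 (0.114 and 0.103) or Brg1 siRNA LPS replicate 2 or 3 (0.155 and 0.0557). Ino80 had an adjusted p of 0.00114 to 0.155 there over the 33 alternatives.

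Smarca5, the ISWI ATPase, averaged 1654 ± 158 in LPS against 921 ± 38.0 in vehicle with Brg1 siRNA, and 1588 ± 129 against 1102 ± 57.0 with control siRNA (SD, n = 3 each). Its LPS changes (0.84 with Brg1 siRNA and 0.53 with control siRNA, log2) were called relative to the authors' scaling, and that with control siRNA turned negative under plain totals. Srcap, which deposits the histone variant H2A.Z, rose by 0.79 with Brg1 siRNA and 0.66 with control siRNA on the log2 scale. A readthrough gene, Gm42715, holds most of the 64.4% of Srcap words that occur elsewhere, and pseudogenes hold 33.3% of those of Smarca5, so both counts are uncertain. Smarcad1, known for keeping heterochromatin through replication, ranged from 176 to 456 normalized counts. In LPS its knockdown difference was not called (log2 change 0.35, SE 0.26, limma adjusted p = 0.322), and it was without control siRNA LPS replicate 2 (log2 fold change 0.69, limma adjusted p = 0.0308, over a range of 0.0308 to 0.991). The one in Dex+LPS (log2 change 0.48, SE 0.22, limma adjusted p = 0.103) was called without control siRNA LPS replicate 2 (limma adjusted p = 0.0436) or 3 (0.0416), over a range of 0.00861 to 0.19.

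Brd2, a bromodomain protein that binds acetylated histones, had normalized counts in Dex+LPS of 5562, 5511, 5600.4 and 5316 with Brg1 siRNA, against 4694, 4842, 4810.4 and 4448 with control siRNA, with all Brg1 siRNA libraries higher (log2 change 0.23, SE 0.05, limma adjusted p = 0.00116). In LPS Brd2 had 7251, 6514 and 7235 with Brg1 siRNA, against 6400.1, 7036 and 6249 with control siRNA. In vehicle Brd2 had 3260.1, 3186 and 3425 with Brg1 siRNA, against 3542, 3522 and 3475 with control siRNA. LPS raised it (log2 change 1.09, SE 0.06, limma adjusted p = 2.96e-12 with Brg1 siRNA; log2 change 0.90, SE 0.06, limma adjusted p = 5.13e-11 with control siRNA), and Dex lowered it relative to the authors' scaling (log2 change -0.35, SE 0.05, limma adjusted p = 2.48e-05 with Brg1 siRNA, not called under plain totals; log2 change -0.48, SE 0.05, limma adjusted p = 4.08e-07 with control siRNA). The exons of H2-DMa overlap those of Brd2 on the opposite strand, so reads of the pair may not be told apart.

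In all, 36 of the 43 genes were called in at least 1 of the 9 comparisons, and Chd2, Chd8, Smarcad1, Hdac4, Ncor1, Ep300 and Kdm6a in none by limma. Of these 7, edgeR and DESeq2 each called Hdac4 in 1 comparison, and at an unadjusted limma p under 0.05 Smarcad1 and Hdac4 passed in 2 and Chd2 and Ep300 in 1. For 22 of the 43 no knockdown comparison was called. The authors' deposited table, at the same threshold on its own adjusted p-values, called the same direction for the genes called here in 5 of 5 for the knockdown in vehicle, 13 of 13 in LPS and 14 of 14 in Dex+LPS, with 1 further gene in each. Over the 7 comparisons in that table, 0 of the genes called here were called there in the opposite direction. Genes on the opposite strand overlap exons of Chd2, Chd8, Chd9, Srcap, Hdac4, Hdac7, Ncor1, Ncoa1, Ncoa3, Setd1a, Kmt2a, Kmt2c, Kdm6b, Ezh2 and Brd2, whose reads may not be told apart from theirs.

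The partner proteins of these regulators, 111 listed subunits and relatives of which 107 were tested, moved in both directions. With Brg1 siRNA 1 rose and 10 fell in vehicle, 8 rose and 23 fell in LPS, and 13 rose and 17 fell in Dex+LPS. Over all tested genes 9.39% rose and 10.8% fell in vehicle, 17.3% and 15.8% in LPS, and 19.0% and 15.3% in Dex+LPS. Without the libraries low in long transcripts 1 partner rose and 12 fell in vehicle, 12 and 26 in LPS, and 11 and 23 in Dex+LPS. Of 24 lysine demethylases, other methyltransferases and BET proteins, 9 fell in LPS and 0 rose by limma, edgeR or DESeq2 or at an unadjusted limma p under 0.05, and 11 fell and 1 rose without those libraries. Of 19 deacetylase and corepressor subunits 2 rose and 1 fell, with 3 rising without them. Of 27 tested proteins of the ISWI, CHD, INO80, SRCAP and NuRD complexes 3 rose and 5 fell in LPS, or 4 and 6 without those libraries. Of 20 acetyltransferases and coactivators 1 rose and 5 fell, or 2 and 5 without them. Of 17 tested COMPASS and Polycomb proteins 2 rose and 3 fell, with the same counts without them. Kdm5b, which removes methyl groups from histone H3 at promoters, had 164 ± 71.9 against 413 ± 16.8 normalized counts in LPS, Brg1 siRNA against control siRNA (log2 change -1.41, limma adjusted p = 2.26e-05), and it fell in Dex+LPS too (log2 change -1.09, limma adjusted p = 6.71e-05). Cbx7, a Polycomb subunit that reads H3K27 methylation, fell in LPS (log2 change -1.81, limma adjusted p = 0.00185) and in Dex+LPS (log2 change -1.71, limma adjusted p = 0.000807). Its counts were low, at 8.02 ± 0.932 with Brg1 siRNA against 35.9 ± 21.9 with control siRNA in LPS. In Dex+LPS they were 38.8 ± 14.0 against 129 ± 40.5. Sirt1, an NAD-dependent deacetylase, rose in LPS (log2 change 0.82, limma adjusted p = 2.38e-05), with 821 ± 62.5 against 464 ± 16.8 normalized counts. Carm1, an arginine methyltransferase and nuclear receptor coactivator, fell in vehicle (log2 change -0.60, limma adjusted p = 0.000157), as did Nsd2 (log2 change -0.81, limma adjusted p = 0.000805), which methylates H3 in gene bodies.

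With LPS 37 partners rose and 35 fell with Brg1 siRNA, and 36 rose and 34 fell with control siRNA, beside 35.4% and 37.4% of all genes with Brg1 siRNA and 36.0% and 37.0% with control siRNA. Without both libraries the splits were 38 to 36 with Brg1 siRNA and 34 to 32 with control siRNA. Kdm4a, a lysine demethylase, rose most among them with either siRNA, to 7244 ± 92.1 against 918 ± 26.7 normalized counts, LPS against vehicle, with Brg1 siRNA (log2 change 2.98, limma adjusted p = 8.46e-18) and 10047 ± 419 against 827 ± 71.2 with control siRNA (log2 change 3.60, limma adjusted p = 5.74e-19). Cbx8, another Polycomb subunit, fell (log2 change -3.70, limma adjusted p = 0.00035 with Brg1 siRNA; log2 change -3.80, limma adjusted p = 0.000275 with control siRNA). Adding Dex, 27 rose and 19 fell with Brg1 siRNA, and 22 rose and 24 fell with control siRNA, or 31 to 25 and 25 to 25 without both libraries. Over all tested genes 21.3% rose and 23.0% fell with Brg1 siRNA, and 23.4% and 25.2% with control siRNA. Tbl1xr1, a subunit of the Ncor1 and Hdac3 complex, rose (log2 change 2.33, limma adjusted p = 1.44e-08 with Brg1 siRNA; log2 change 1.47, limma adjusted p = 3.95e-06 with control siRNA), while its paralog Tbl1x fell with control siRNA (log2 change -0.96, limma adjusted p = 6.97e-08). Jarid2, which recruits the Polycomb complex of Ezh2, fell (log2 change -1.13, limma adjusted p = 6.01e-06 with Brg1 siRNA; log2 change -1.42, limma adjusted p = 3.04e-07 with control siRNA). The LPS response differed between the siRNAs for 5 partners upward, Sirt1, Phf19 and Nsd2 having the largest differences, and for 6 downward, Cbx7, Tada2a and Kdm5b having the largest. The calls of Sirt1, Phf19 and Nsd2 held in all 33 alternatives. That of Tada2a (limma adjusted p = 0.0478) held in 12 of 33, and those of Cbx7 and Kdm5b ended without the higher number series. Without both libraries low in long transcripts the split was 10 upward to 5 downward, so the balance turned. With every library kept, the LPS response of 6.39% of all tested genes differed upward and of 5.05% downward. For the Dex interaction limma and edgeR called 0 of 107 partners, limma 1 without both libraries, and DESeq2 3, all higher, while 9 higher and 4 lower had an unadjusted limma p under 0.05. Over all tested genes limma called 2.75% higher and 1.22% lower for that interaction.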

How the data were processed

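RNA of 20 samples in 6 groups, set by the titles in the labels, was sequenced with a stranded mRNA kit, and the protocol also speaks of rRNA depletion. Both Dex+LPS groups hold 4 labelled libraries, although the series design mentions 3 per condition. The authors deposited a table of 17787 genes holding 20 columns of signal, which the file headers call a DESeq normalization. The log2 fold changes and adjusted p-values of 7 comparisons in that table were computed by the authors, per the file headers. Salmon 1.4.0, R 4.1.0, DESeq2 and DESeq are named in the submitters' processing notes, as are the builds mm10 and GRCm38.p6. Filters, annotation and the strand counted are not given in the sources used here. Every sample column matched a label, and 0 did not.

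Each signal column is whole reads divided by a size factor: times that factor, 99.95% of the nonzero values came within 0.01 of a whole read. On those reads edgeR called 1130 genes higher and 1373 lower for the knockdown in vehicle, 1967 and 1901 in LPS, and 2008 and 2148 in Dex+LPS. Depth was 13.69 to 18.71 M reads. No replicate pair agreed within sampling noise.

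Normalized counts plus 1 were taken to the log2 scale and the 6 groups were fitted together by limma 3.58.1 with its trend option under R 4.3.3, for genes with at least 10 in at least 3 samples (12061), Benjamini-Hochberg adjusted within a comparison over all of them and called under 0.05. It was tested on simulated data first. Fold changes of low genes on this scale can lie on either side of the authors' values. For Hdac9 and the knockdown in LPS the log2 change was -2.02 here and -1.48 as given by the authors. For Kdm6b and the knockdown in vehicle it was 1.12 here and 1.15 as given by the authors. Values of every sample are printed for called genes, at most the 8 largest rises and 8 largest falls a comparison, and for genes called in an interaction. Others are given by range and count, except those named for a change of call, which were chosen after their values were seen. Of partner lists at most 3 rises and 3 falls a comparison are named. The genes and lists were chosen with earlier results of these data known. Coordinates are from GENCODE on GRCm38, transcript length is that of the longest transcript with the basic tag, and shared words are 31-base words found in other annotated genes.

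Alternatives were plain library totals, TMM factors, pseudocounts of 0.5 and 5, no filter, a filter at 50, edgeR 4.0.16 and DESeq2 1.42.0 on the recovered reads, only the compared groups, the replicate number as a block, the higher number series of the library labels (4 libraries) as a term or left out, and each library left out. Leaving out both libraries low in long transcripts was added after the data were seen.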

Additional observations from a re-analysis of the deposited data

Results flagged for a closer look

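Within groups of 4 libraries, 8 values stood far from the other 3 by Dixon's criterion, which chance meets in about 1 of 20 groups, over 86 groups looked at. In control siRNA Dex+LPS replicate 2, the library lowest in long transcripts, these were Ncoa2 at 695 normalized counts, Ep300 at 805, Kmt2c at 402, Kdm6a at 203 and Ezh1 at 772. In control siRNA Dex+LPS replicate 4 Hdac2 stood apart at 712. In Brg1 siRNA Dex+LPS replicate 4 Ncoa2 stood apart at 1243 and Rbbp5 at 492.

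The response to treatment differed between the siRNAs by limma for 4 genes with LPS and 1 with Dex. The log2 difference, Brg1 siRNA minus control siRNA, was -1.01 for Hdac5, -0.94 for Chd7, -0.81 for Kat2a and 1.11 for Ezh2 with LPS, and 0.48 for Kat2a with Dex.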

How the results depend on the processing

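Of the 132 calls behind the report, 75 held in all 33 alternatives and 57 ended in at least 1. Of the 255 results not called, 86 were called in at least 1 alternative, 40 of them when 1 library was left out. Under plain library totals 28 calls ended and 12 turned direction. For LPS with Brg1 siRNA, log2 changes became -0.23 for Chd4, -0.23 for Nrip1, -0.22 for Kat2b and -0.16 for Setd1a. For LPS with control siRNA they became -0.030 for Chd1, -0.28 for Chd4, -0.056 for Smarca5, -0.20 for Nrip1, -0.22 for Setd1a and -0.14 for Kmt2c. For Dex with Brg1 siRNA they became 0.17 for Chd4 and 0.051 for Wdr5. The scaling moves all genes together, as the medians in the report show.

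The 5 calls for the knockdown in vehicle became 8 under plain totals, 8 with the compared groups alone and 8 with the number series as a term, and ranged from 3 to 5 with 1 library left out. The 13 in LPS ranged from 8 to 15 with 1 library left out. The cause was not tested. The 1 Dex interaction (Kat2a) became 2 with DESeq2, 0 with the compared groups alone and 2 with the replicate block, and ranged from 0 to 1 with 1 library left out. The other 6 counts stayed within 1.5 times in every alternative, the replicate block included. Same-numbered samples do not pair: the correlations of their deviations ran from -0.166 to 0.406. The 4 libraries of the higher number series did deviate together. Their correlations were 0.207 to 0.406 over the 4 of their pairs that fall within a comparison. These libraries are control siRNA LPS replicate 3, Brg1 siRNA LPS replicate 2, and replicate 4 of both Dex+LPS groups. Neither vehicle group holds one, so the series is not balanced in LPS against vehicle. With that series as a term the LPS interaction was called for 6 genes, Cxxc1 (0.0179) and Brd2 (0.0294) added. The replicate block ended 2 of the 132 calls. Depth limits genes with few reads, such as Hdac9.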
